A study of Mus musculus with 6 samples.

Results

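The immunoglobulin heavy-chain V genes were followed here in order of their position along the locus. The members are the genes of type IG_V_gene on chromosome 12 of the GENCODE vM1 annotation that also have a row in the deposited count tables, and 112 of the 37991 genes in those tables met this rule. They lie on chromosome 12 of NCBIM37 (mm9) between positions 114812453 and 117238672, a stretch of 2426 kb, with 110 on the minus strand and 2 on the plus strand. Position 1 is the gene nearest to the D segments (Ighv2-1) and position 112 the most distal one (Ighv1-85). For summaries the members were divided by position into a D-proximal zone of 38 genes, a middle zone of 37 genes and a distal zone of 37 genes. Names of the Ighv form were taken from RefSeq, which listed 36 members under the symbol in the annotation and 76 under another, and they fall into 16 families. No exon of a member overlaps an exon of another annotated gene.

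A heavy-chain variable region is assembled in each developing B cell by joining 1 D segment to 1 J segment and then 1 V segment to that DJ unit, so that a cell with a productive heavy chain transcribes mainly the V gene it has joined. V segments that are not joined can also be transcribed at a low level from their own promoters. The RAG recombinase recognises a recombination signal sequence (RSS) that directly follows the coding part of each V segment and consists of a heptamer, a spacer of 23 bases and a nonamer. Many cells that have each joined a different V gene therefore give a broad pattern of V transcripts, and the pattern of a population is read as the share of all heavy-chain V counts that falls on each gene.

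RNA-seq of polyadenylated RNA was available from pre-B cells of bone marrow, gated by flow cytometry on high B220 with low IgM and low IgD, in 6 libraries from C57BL/6 mice. The labels give this gate for all stages, whereas the methods of the study describe the malignant cells as B220+ IgM- IgD-, so that stage and sort cannot be told apart in comparisons with them if the gates differed. The 2 wild-type libraries came from mice of 4 to 6 weeks without the transgene, the 2 premalignant libraries from Eμ-Myc mice of 4 to 6 weeks, and the 2 malignant libraries from Eμ-Myc mice that had developed lymphoma, at 10 to 20 weeks. Eμ-Myc mice were kept as heterozygotes, and the transgene places Myc under the enhancer of the heavy-chain locus, which is active in B-lineage cells. Malignant mice were thus older than all others, so that stage and age cannot be told apart in comparisons with them. The methods of the study also state that wild-type and premalignant cells came from females and malignant cells from mice of both sexes. Stage and sex cannot be told apart either if a malignant library came from a male. The replicate 1 libraries were the more deeply sequenced of each stage, with 51065861 to 53453055 counts against 30031100 to 34543633 in the replicate 2 libraries. Myc was at 33.8 and 41.4 CPM in wild type and at 1155 to 1732 CPM in the other 4 libraries, which matches the labels. CPM here is counts per 1000000 of the library size after TMM normalization. Of 6 B-lineage markers none was at 0 in any library.

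The RSS of the 4 V genes that led a library, of Ighv2-9, which came second in malignant 2, and of Ighv5-2 are shown because they mark where each of these segments can be joined. The sequences were read from NCBIM37 on the minus strand, 5′ to 3′, with the heptamer and the nonamer in capitals and the spacer in lower case. The spacer was held at 23 bases, so that the capitals of the nonamer follow this setting. They lie at chr12:115298017-115298055 for Ighv14-3, chr12:117158451-117158489 for Ighv1-81, chr12:115117268-115117306 for Ighv2-9, chr12:116026544-116026582 for Ighv1-26, chr12:115378864-115378902 for Ighv9-3 and chr12:114816676-114816714 for Ighv5-2.
Ighv14-3: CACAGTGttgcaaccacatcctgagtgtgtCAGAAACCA
Ighv1-81: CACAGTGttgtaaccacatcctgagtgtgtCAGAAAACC
Ighv2-9: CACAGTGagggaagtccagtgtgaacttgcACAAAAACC
Ighv1-26: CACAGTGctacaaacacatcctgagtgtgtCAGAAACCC
Ighv9-3: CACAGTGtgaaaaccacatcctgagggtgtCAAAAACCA
Ighv5-2: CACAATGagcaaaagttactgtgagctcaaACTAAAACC

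The consensus used was CACAGTG for the heptamer and ACAAAAACC for the nonamer, and the best match was sought on the strand of the gene within 25 bases of its annotated end. Of the 112 members, 78 had a heptamer identical to the consensus, and these carried 81.0% of the wild-type V counts (mean of both libraries). A further 22 members matched at 6 of the 7 positions and carried 17.0%, whereas the 12 members with 5 or fewer matches carried 1.96%. Most of this last share lay at Ighv1-18 with 1.35%. At Ighv1-18 and Ighv1-2, both singled out after their values were seen, a full CACAGTG lay farther from the annotated end than the search reached. The split by heptamer match thus depends in part on the annotated ends. The median share of a gene was 0.781% with a full heptamer, 0.408% with 6 matches and 0.0356% with 5 or fewer. With the spacer held at 23 bases, Ighv2-9 and Ighv5-2 matched 9 and 8 of the 9 nonamer positions and Ighv14-3 matched 4. Other spacer lengths were not searched. A shift of the frame changes these numbers, so the low value of Ighv14-3 holds for this setting only. The 2 members that matched all 16 positions of heptamer and nonamer held 0.862% of the wild-type V counts together. In 85 members the octamer ATGCAAAT, which B-cell octamer factors bind in V promoters, was found on either strand in the 250 bases before the annotated start, compared with 25 of 1182 other genes of chromosome 12 (2.12%). A match of letters is a description of the sequence and does not show that it is used.

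Reads of 50 bases had to be told apart between close V gene copies. Of the 50-base windows in the exons of a gene, those found nowhere else in the genome made up 80.1% for Ighv14-3, 87.5% for Ighv1-81, 77.3% for Ighv2-9, 72.7% for Ighv9-3 and 52.0% for Ighv1-26. At 3 members (Ighv1-62-2, Ighv1-71 and Ighv1-72) no window was unique, and counts for these are uncertain. To show what separates the 2 leading genes of the malignant libraries from their nearest relatives, the last 290 bases of the V exon are printed with their closest member, on the minus strand 5′ to 3′, and the capitals mark the bases that differ within each pair. These stretches are chr12:115298056-115298345 for Ighv14-3, chr12:115170164-115170453 for Ighv14-1, chr12:117158490-117158779 for Ighv1-81 and chr12:117238239-117238528 for Ighv1-85.
Ighv14-3: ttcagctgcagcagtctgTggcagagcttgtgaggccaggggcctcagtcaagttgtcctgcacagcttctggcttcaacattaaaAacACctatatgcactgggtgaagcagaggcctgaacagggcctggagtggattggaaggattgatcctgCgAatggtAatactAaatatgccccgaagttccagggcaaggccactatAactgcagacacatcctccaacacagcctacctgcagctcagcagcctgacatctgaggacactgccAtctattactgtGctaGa
Ighv14-1: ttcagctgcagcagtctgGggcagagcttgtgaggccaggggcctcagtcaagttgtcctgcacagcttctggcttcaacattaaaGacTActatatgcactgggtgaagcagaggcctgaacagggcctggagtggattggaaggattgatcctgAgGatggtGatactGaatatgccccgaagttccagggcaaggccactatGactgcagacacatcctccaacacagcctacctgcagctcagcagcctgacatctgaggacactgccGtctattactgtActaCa
Ighv1-81: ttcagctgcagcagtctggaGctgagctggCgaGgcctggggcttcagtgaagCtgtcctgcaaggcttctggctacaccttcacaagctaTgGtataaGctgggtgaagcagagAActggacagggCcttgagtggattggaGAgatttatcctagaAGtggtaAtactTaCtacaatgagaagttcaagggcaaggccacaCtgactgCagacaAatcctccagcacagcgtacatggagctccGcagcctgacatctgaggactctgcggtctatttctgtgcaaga
Ighv1-85: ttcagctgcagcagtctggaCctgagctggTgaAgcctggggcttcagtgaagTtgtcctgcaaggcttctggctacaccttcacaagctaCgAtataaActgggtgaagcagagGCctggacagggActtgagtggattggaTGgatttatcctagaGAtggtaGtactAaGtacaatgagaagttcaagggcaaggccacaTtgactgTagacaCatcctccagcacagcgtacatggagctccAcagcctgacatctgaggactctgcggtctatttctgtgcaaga
Over these 290 bases Ighv14-3 and Ighv14-1 differ at 12 positions (95.9% identity), and Ighv1-81 and Ighv1-85 differ at 21 (92.8%). Ighv2-9 is closest to Ighv2-6-8, also with 95.9%. Ighv14-3 was thus close to another member of its family, and its count is read together with the counts of those relatives.

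The first question was how much heavy-chain V transcript the cells held at each stage. Summed over the 112 members, V genes took 30042 and 24778 counts in the wild-type libraries, 12779 and 8650 in the premalignant libraries and 139 and 7526 in the malignant libraries. In counts per 1000000 of the library total, this was 588 and 792 in wild type, 239 and 250 in premalignant, and 2.62 and 251 in malignant cells. Both premalignant libraries were thus below both wild-type libraries, malignant 2 was at the premalignant level, and malignant 1 was far below all others. The wild-type and premalignant means were 690 ± 144 and 245 ± 8.02 (SD, n = 2), a difference that cannot be called with 2 libraries a stage, since an exact permutation test (two-sided) cannot go below p = 0.333, the value obtained. In bulk RNA, fewer cells of a type and less RNA per cell cannot be told apart. With 2 libraries against 2, the permutation p-value reflects only the order of the values and not the size of their spread. The libraries of a stage are numbered as replicates in the labels.

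Ighm, the gene of the μ constant region to which a joined V segment is spliced in pre-B cells, gave a measure of V counts per heavy-chain transcript. It held 272807 and 214995 counts in wild type, 141641 and 101196 in premalignant, and 113747 and 113190 in malignant libraries. There were 11.0 and 11.5 V counts per 100 Ighm counts in wild type, 9.02 and 8.55 in premalignant cells, 0.122 in malignant 1 and 6.65 in malignant 2. Both V counts and Ighm counts were thus lower in premalignant than in wild-type libraries. Malignant 1 held nearly the same raw Ighm counts as malignant 2 but was sequenced more deeply, and it held hardly any V counts. In TMM-normalized CPM, Ighm was at 4781 and 6087 in wild type, 2699 and 3049 in premalignant, and 2379 and 4058 in malignant libraries. With depth taken into account, malignant 1 was thus below malignant 2 in Ighm. The 4 other annotated genes that lie within the V cluster held 0 counts in malignant 1 and 9 in malignant 2. Among them, Ighv1-73 is named as a V gene but typed as protein-coding. Ighv1-73 and Gm16693 had 3 or fewer counts in every library. Gm15449 had 339 and 266 counts in wild type, and Gm7112 had 55 and 50.

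**Figure D1:**
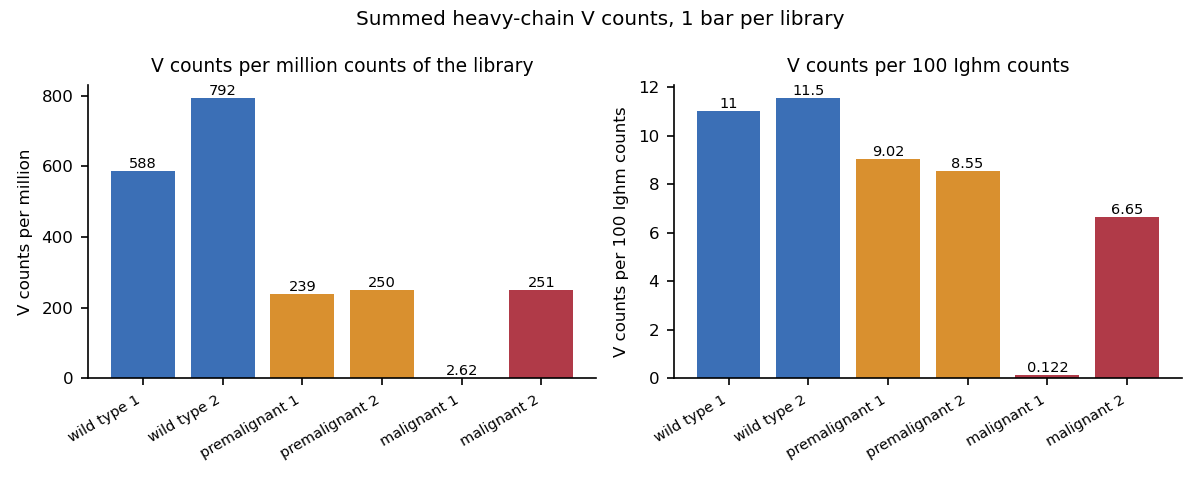
Summed counts of the 112 heavy-chain V genes in each of the 6 libraries, 1 bar per library, scaled to the library total (left panel, counts per 1000000, linear axis) and per 100 Ighm counts (right panel, linear axis). Malignant 1 is near 0 on both scales, with 2.62 counts per 1000000 of V genes and 0.122 per 100 Ighm counts, while malignant 2 reaches 251 counts per 1000000, as the premalignant libraries do.

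In wild-type cells, V counts came from the whole length of the locus. Transcripts of joined and unjoined V segments were not told apart in these counts. The D-proximal zone held 30.1% and 29.1% of the V counts in the 2 libraries, the middle zone 37.0% and 36.3%, and the distal zone 32.9% and 34.6%. Across the 112 genes, position and share were almost unrelated, with Spearman's rho of 0.00795 and 0.0319 in the 2 libraries, described here without a test because genes of 1 library share its depth. Neighbours differed widely instead. Of 105 adjacent pairs in which both genes had a wild-type count, 75 differed by more than 2-fold in mean share and 36 by more than 10-fold, with a median ratio of 4.18. A gene's share had a median of 0.599% and 0.615%, and 25 and 24 members held less than 0.1%.

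The 5 V genes with the highest shares in wild-type cells came from all 3 zones. Ighv1-26 (position 64, middle zone, chr12:116026583-116027016) had 4.85% and 5.20% of the V counts in the wild-type libraries and 5.54% and 6.16% in the premalignant ones. Ighv9-3 (position 34, D-proximal zone, chr12:115378903-115379333) had 4.99% and 4.60% in wild type and 4.37% and 3.75% in premalignant cells. The leading gene was thus Ighv9-3 in wild type 1 and Ighv1-26 in the other 3 of these libraries. For Ighv1-26 both premalignant shares lay above both wild-type shares, and for Ighv9-3 both lay below. Ighv8-8 (position 83, distal zone) had 3.87% and 3.89% in wild type and 3.04% and 3.75% in premalignant cells. Ighv3-6 (position 40, middle zone) had 3.91% and 3.35% in wild type and 3.86% and 3.92% in premalignant cells, so that its stages overlapped. Ighv1-81 (position 108, distal zone) had 2.77% and 2.80% in wild type and 2.55% and 2.51% in premalignant cells. Exon lengths of these 5 genes run from 336 to 351 bases, and after division of all counts by exon length Ighv9-3 led wild type 1 with 4.82% and Ighv1-26 led wild type 2 with 5.01%.

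Ighv5-2, also known as VH81X, is the V gene that fetal pro-B cells use most and lies at position 2, next to Ighv2-1 (1 count over all 6 libraries), which RefSeq classes as a pseudogene. It had 304 and 273 counts in wild type, 107 and 77 in premalignant, and 0 and 5 in malignant libraries. Its share of 1.01% and 1.10% in wild type and 0.837% and 0.890% in premalignant cells placed it far below Ighv1-26. At the other end, Ighv1-85 (position 112) had 303 and 229 counts in wild type, 84 and 74 in premalignant, and 0 and 7 in malignant libraries. V counts were thus found near both ends of the locus in wild-type and premalignant cells.

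By family, the 56 Ighv1 genes, which lie between positions 46 and 112, held 49.5% and 51.6% of the wild-type V counts. The 10 Ighv5 genes at positions 2 to 19 held 10.1% and 9.69%, the 10 Ighv2 genes at positions 1 to 20 held 4.52% and 4.63%, and the 8 Ighv8 genes held 6.04% and 5.97%. The same families held 49.4% and 51.2%, 11.0% and 9.47%, 4.91% and 4.42%, and 5.10% and 6.15% in the premalignant libraries. In each of these 4 families the 2 stages overlapped. The 8 members that RefSeq classes as pseudogenes held 2.14% of the wild-type V counts, mainly at Ighv7-3 with 296 and 235 counts and Ighv7-1 with 261 and 195, both singled out after their values were seen.

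**Figure D2:**
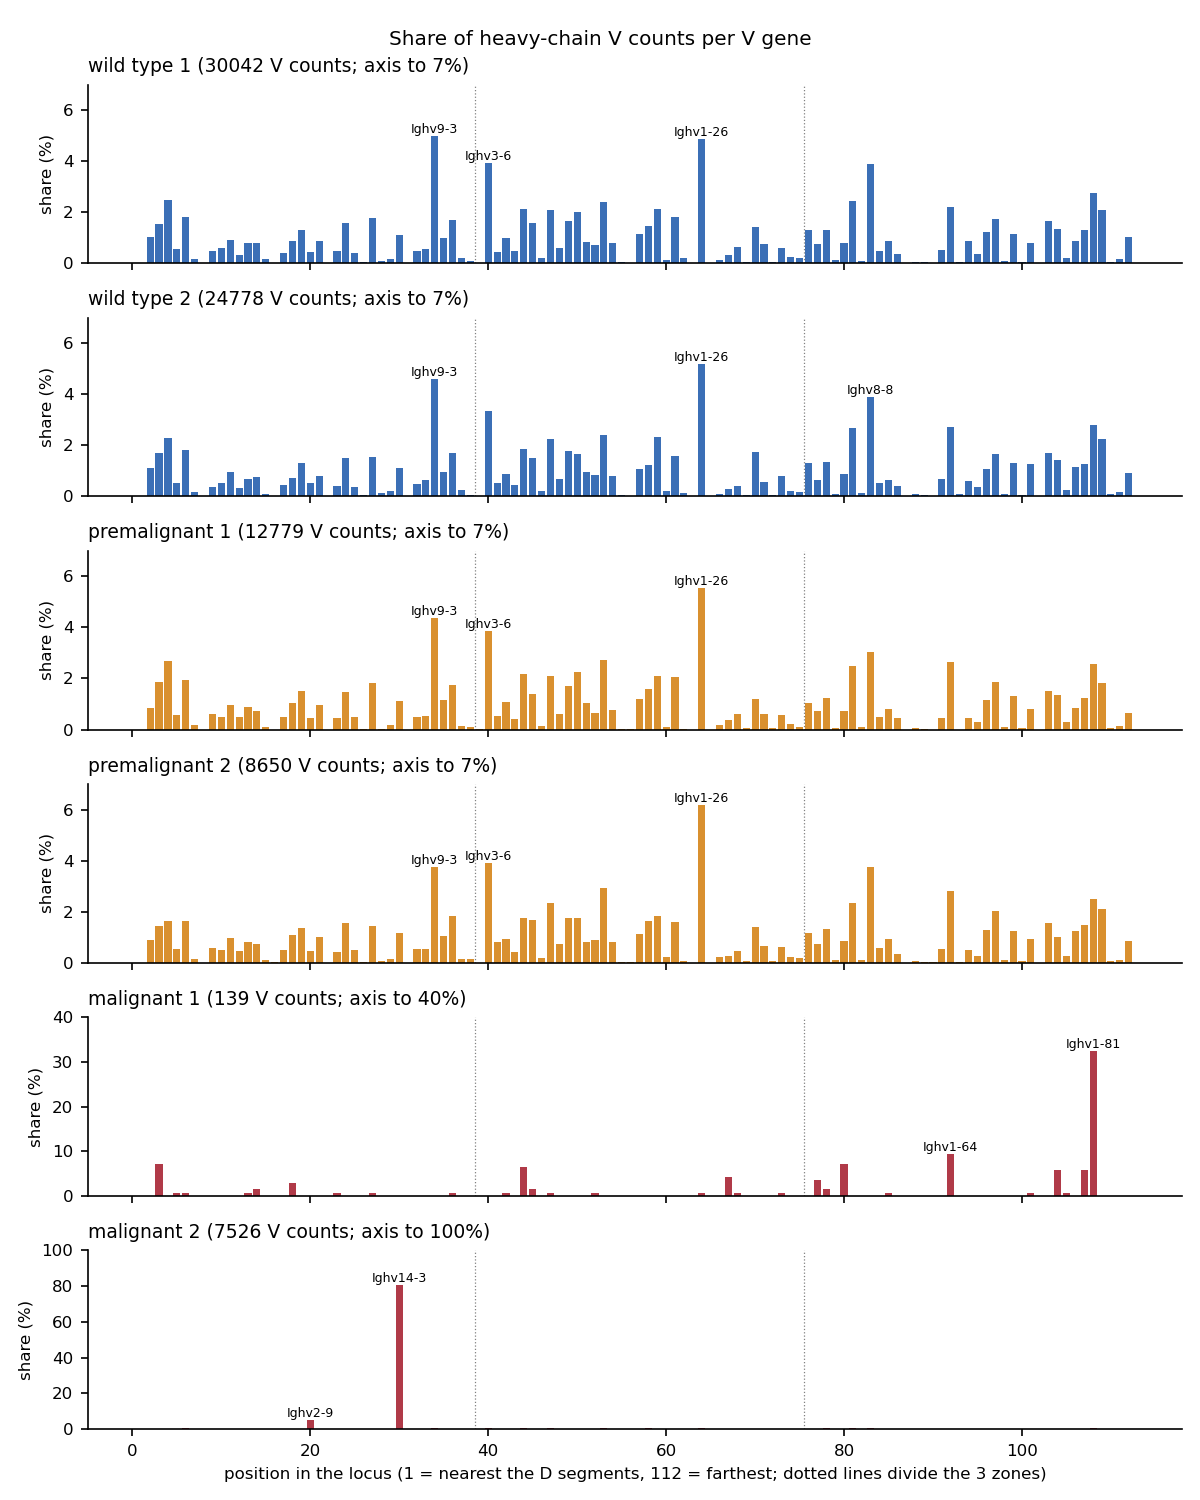
Share of all heavy-chain V counts of a library (percent, vertical axis) at each of the 112 V genes in order of position (horizontal axis, 1 nearest to the D segments), with 1 panel per library and dotted lines between the D-proximal, middle and distal zones. The 4 wild-type and premalignant panels share an axis to 7% and show the same profile, with Ighv9-3 and Ighv1-26 among the highest bars, whereas Ighv1-81 reaches 32.4% in malignant 1 (axis to 40%) and Ighv14-3 reaches 80.4% in malignant 2 (axis to 100%).

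The second question was whether the premalignant stage differed from the wild type in its profile of V genes. The profile of shares was nearly the same. The overlap of 2 profiles, which is the sum over genes of the smaller of both shares, was 94.8% between the wild-type libraries, 93.4% between the premalignant libraries and 92.6% to 94.4% between libraries of the 2 stages. The effective number of V genes, which is 1 divided by the sum of squared shares and equals the number of genes when all are used equally, was 50.9 and 51.2 in wild type and 50.5 and 50.3 in premalignant cells. In each of these 4 libraries, 20 genes were enough to reach 50% of the V counts. The zones held 31.0% and 28.2%, 38.0% and 38.5%, and 30.9% and 33.3% of the premalignant V counts from D-proximal to distal. The difference between stages in the D-proximal zone was -0.0359 percentage points, smaller than the SD of 2.01 between the premalignant libraries (exact permutation test, two-sided, p = 1.00).

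Gene by gene, 77 of the 79 members with at least 100 wild-type counts kept a share within 1.5-fold between the stage means. The 2 others, named after their values were seen, were Ighv1-23 with 66, 35, 3 and 6 counts in wild type 1, wild type 2, premalignant 1 and premalignant 2, and Ighv1-66 with 265, 145, 58 and 44 counts. The log2 ratio of their mean shares, premalignant over wild type, was -1.96 for Ighv1-23 and -0.61 for Ighv1-66. Over all 112 members, shares were lower in both premalignant libraries for 27, higher in both for 23 and overlapping for 62. The median log2 ratio of shares was 0.04 in the D-proximal, 0.03 in the middle and -0.07 in the distal zone, and across the 79 genes it had a Spearman's rho of -0.21 with position, given as a description.

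The level of V transcripts, as opposed to the share, was lower in premalignant cells along the whole locus. Of the 112 members, 103 had a lower CPM in both premalignant libraries than in both wild-type libraries, 6 overlapped and 3 had no counts in these libraries. The filter on low counts left 99 members for the test, and all 99 were lower in both premalignant libraries, against 41.2% of all 16683 genes tested (36.2% were higher in both). Since the 13 members that did not pass had few or no counts at any stage, the 99 are not the whole set. Their median log2 fold change was -1.27, with quartiles of -1.49 and -1.16, against -0.08 for all genes tested. It was -1.27 in the D-proximal, -1.25 in the middle and -1.38 in the distal zone. Single members ran from -3.92 to -0.57, so that the range was much wider than the quartiles.

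Far fewer members were called. With edgeR's quasi-likelihood test fitted to all 6 libraries and thresholds of 0.1 on the adjusted p (FDR) and 0.5 on the size of the log2 fold change, 13 of the 99 were called lower and 0 higher in premalignant cells, and 20 had an unadjusted p under 0.05, all of them lower. DESeq2 called 16 lower and 0 higher. Among all genes tested, 20.3% were called lower, 19% higher and 39.3% either way, a larger share than among the V genes tested. The fit without the malignant libraries called 88 of 99 V genes lower, against 4248 of all 16313 genes tested in that fit. The smaller share called among V genes thus held for the fit of all 6 libraries and not for this one. Fitted medians of the V genes were -1.26 and -1.21 without malignant 1 or malignant 2. They were -1.47 and -1.04 without wild type 1 or wild type 2, and -1.23 and -1.32 without premalignant 1 or premalignant 2.

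Among the 13 called members were both abundant and rare genes. Ighv1-81 was at 14.6 and 19.6 CPM in wild type and at 6.21 and 6.54 CPM in premalignant cells, with a log2 fold change of -1.42 ± 0.35 (SE) and an adjusted p of 0.0282 by edgeR. Ighv1-23 was at 1.16 and 0.991 CPM and then at 0.0572 and 0.181 CPM, with a log2 fold change of -3.23 ± 0.68 and an adjusted p of 0.0223. Ighv8-11 fell from 0.280 and 0.566 CPM to 0 and 0.0603 CPM, Ighv1-13 from 0.245 and 0.255 to 0.0191 and 0.0603 CPM, Ighv11-1 from 0.263 and 0.510 to 0.0762 and 0.0603 CPM, and Ighv3-2 from 0.351 and 0.878 to 0.0762 and 0.181 CPM, each from 31 or fewer counts in either wild-type library. In contrast, Ighv1-26 went from 25.5 and 36.5 CPM to 13.5 and 16.1 CPM (log2 fold change -1.07 ± 1.09, adjusted p = 0.488 by edgeR) and was not called.

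Other genes moved with this difference. The summed level of 5 plasma cell markers was 860 and 755 CPM in wild type, 387 and 377 CPM in premalignant cells and 330 and 331 CPM in malignant cells, and 4 of 5 were called lower in premalignant cells. Most of each sum was Irf4, at 685 and 603 CPM in wild type and 306 and 310 CPM in premalignant cells. All 6 myeloid markers were called lower, with summed levels of 771 and 1695 CPM in wild type, 231 and 247 CPM in premalignant and 55.0 and 111 CPM in malignant cells, and no myeloid marker was at 0 in any library. Of the 6 B-lineage markers 5 were called lower, with summed levels of 4378 and 5435 CPM in wild type, 3024 and 3060 CPM in premalignant and 3006 and 2777 CPM in malignant cells. Of the other lists, 4 of 6 erythroid, 4 of 6 T cell, 3 of 3 NK and 3 of 4 plasmacytoid dendritic markers were called lower in premalignant cells. All 5 pro-B markers were called lower, with summed levels of 1087 and 958 CPM in wild type and 151 and 97.5 CPM in premalignant cells. Of 5 later B-cell markers 1 was called higher and 2 lower, with summed levels of 531 and 756 CPM against 1215 and 1313 CPM. Most of this rise was Cd74, at 286 and 338 CPM in wild type and 849 and 877 CPM in premalignant cells. Ms4a1 was also higher in both premalignant libraries, Cd22 overlapped, and Cr2 and Fcer2a were lower. Among all genes tested in this comparison, 20.3% were called lower, 19% higher and 39.3% either way, and the lists were not tested against them. The part of these cells in the V gene levels was not tested.

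**Figure D3:**
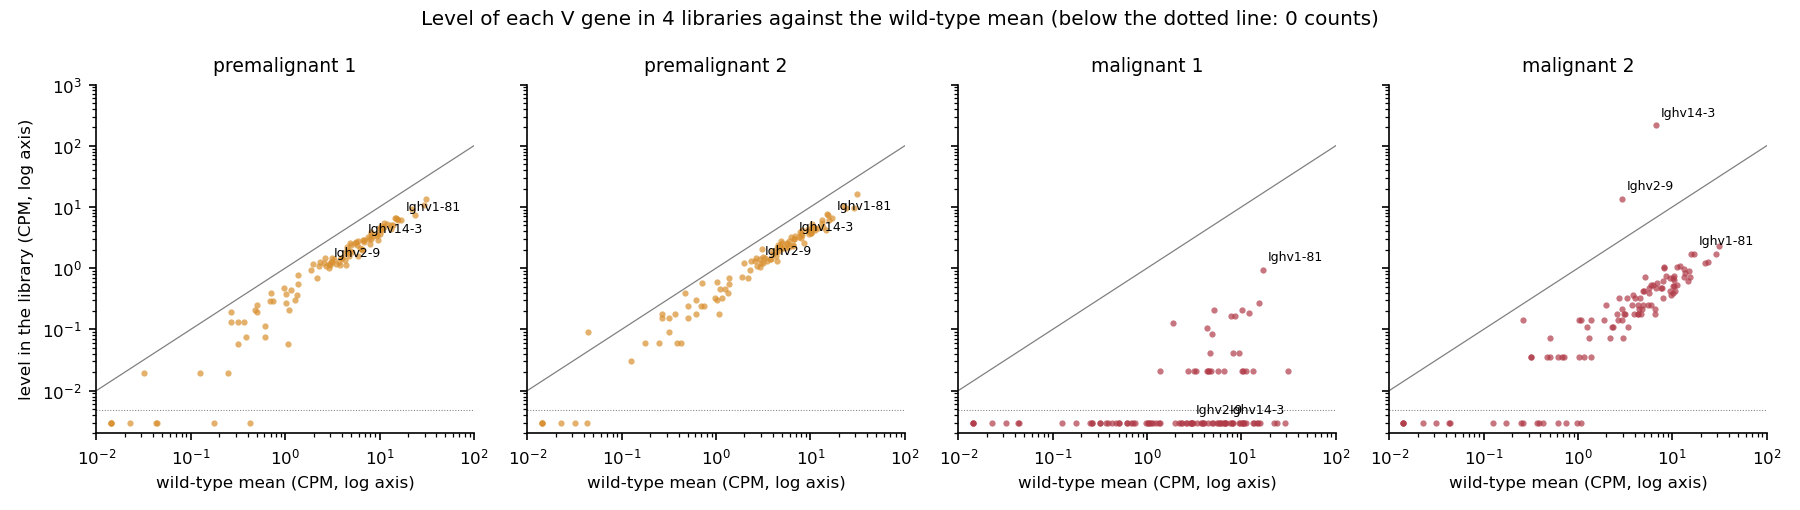
Level of each V gene in the premalignant and malignant libraries (vertical axis, CPM after TMM normalization, log scale) against its mean level in wild type (horizontal axis, CPM, log scale), 1 point per gene, with the line of equal levels in grey and genes at 0 counts drawn below the dotted line. Premalignant genes form a band parallel to the line of equal levels and below it, with 1 rare gene above it in premalignant 2. In malignant 1 most genes are at 0, and in malignant 2 a lower parallel band is seen together with Ighv14-3 at 217 CPM and Ighv2-9 at 13.7 CPM above the line.

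The third question was what became of the profile in malignant cells. The 2 malignant libraries were led by different V genes, which lay in different zones. In malignant 2, Ighv14-3 (position 30, D-proximal zone, chr12:115298056-115298484, minus strand) held 6048 of the 7526 V counts, a share of 80.4% (Wilson 95% interval 79.4% to 81.2%). The same gene had 335 and 271 counts in wild type, 142 and 100 in premalignant cells and 0 in malignant 1. In CPM it was at 5.87 and 7.67 in wild type, 2.71 and 3.01 in premalignant, 0 in malignant 1 and 217 in malignant 2. The 2 malignant libraries therefore lay on opposite sides of all others, and the log2 fold change of 4.00 ± 2.23 between malignant and wild type was not called (adjusted p = 0.194 by edgeR). Without malignant 2 it was -11.23, a value that rests on the single malignant library at 0.

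Ighv2-9 (position 20, D-proximal zone, chr12:115117307-115117740) was the second gene of malignant 2, with 381 counts or 5.06% of its V counts (Wilson 95% interval 4.59% to 5.58%). It had 134 and 126 counts in wild type, 58 and 40 in premalignant cells and 0 in malignant 1. Its level was 2.35 and 3.57 CPM in wild type, 1.11 and 1.21 CPM in premalignant, 0 in malignant 1 and 13.7 CPM in malignant 2. The log2 fold change against wild type was 1.20 ± 1.79 and was not called (adjusted p = 0.628 by edgeR). The next genes of malignant 2 were Ighv1-26 with 63 counts and Ighv1-81 with 48, so that Ighv14-3 and Ighv2-9 stood well apart from the remaining members.

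Neighbours and relatives of Ighv14-3 were not high in malignant 2. Its neighbours Ighv11-2 and Ighv16-1 had 1 and 0 counts in malignant 2, and Ighv11-2 had 44 and 55 in wild type. Ighv3-2 and Ighv9-1, 2 places away, had 0 and 6. The other Ighv14 genes, named after their values were seen, were below wild type in malignant 2. Ighv14-1, which differs from Ighv14-3 at 12 of 290 bases, had 9 counts against 139 and 104 in wild type, Ighv14-2 had 14 against 531 and 386, and Ighv14-4 had 21 against 514 and 419. Next to Ighv2-9, Ighv5-17 and Ighv7-1 had 17 and 12 counts in malignant 2 against 395 and 261 in wild type 1.

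Malignant 1 held only 139 V counts, of which Ighv1-81 (position 108, distal zone, chr12:117158490-117158923) took 45, a share of 32.4% (Wilson 95% interval 25.2% to 40.5%). Even so, its level of 0.941 CPM was below all 4 wild-type and premalignant libraries, which had 6.21 to 19.6 CPM, and also below the 1.72 CPM of malignant 2. Ighv1-64 followed with 13 counts (9.35%, interval 5.55% to 15.3%), Ighv2-2 with 10 and Ighv1-54 with 10, the last named after its values were seen. The neighbours of Ighv1-81, Ighv1-80 and Ighv1-82, had 8 and 0 counts. No V gene of malignant 1 was above its wild-type level, in contrast to malignant 2, and 84 of 112 members had no count. A count of 0 allows up to 3 counts, which is 0.0566 counts per 1000000 in this library, and these intervals and limits cover counting error only.

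The profile was narrower in both malignant libraries. The effective number of V genes was 7.14 in malignant 1 and 1.54 in malignant 2, against 50.3 to 51.2 in the other 4 libraries. To reach 50% of the V counts, 4 genes were needed in malignant 1 and 1 in malignant 2, against 20 elsewhere. With the V counts of every library thinned to 139, the number of members detected was 28 in malignant 1 and 18.7 in malignant 2 on average, and 57.9 to 58.7 in the others, so that the low total of malignant 1 leaves this order in place. The mean share of the leading gene was 56.4% ± 33.9 in malignant and 5.09% ± 0.147 in wild-type cells (SD, n = 2, exact permutation test, two-sided, p = 0.333, the smallest possible). The profiles of the 2 malignant libraries overlapped by 6.06%.

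**Figure D4:**
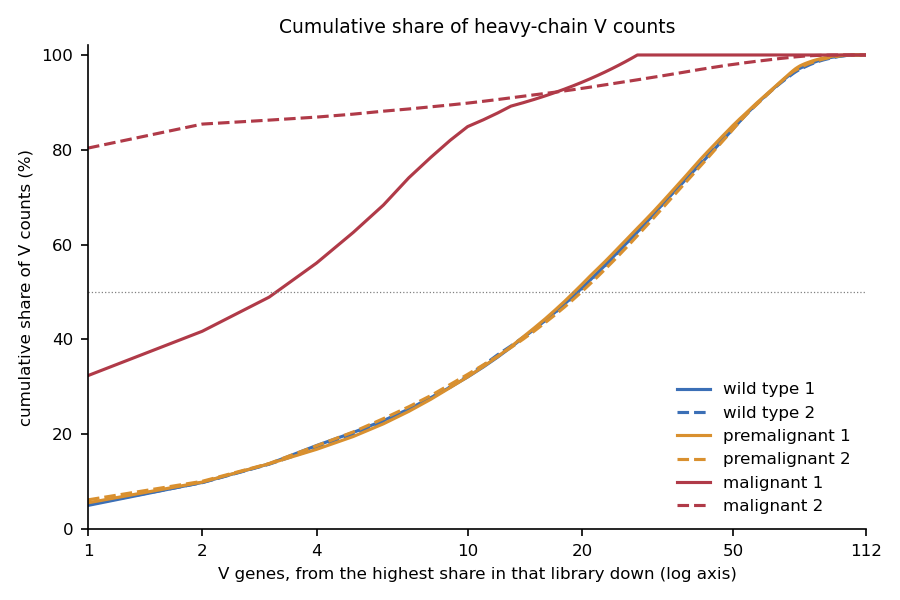
Cumulative share of the V counts (percent, linear vertical axis) when the V genes of each library are added from the highest share down (number of genes, log axis), with 1 line per library. The wild-type and premalignant lines coincide and cross the dotted 50% line at 20 genes, malignant 1 crosses it at 4 genes, and malignant 2 begins at 80.4% with its first gene.

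The zones shifted in opposite directions in the 2 malignant libraries. Malignant 1 had 15.8% of its V counts in the D-proximal, 16.5% in the middle and 67.6% in the distal zone, and malignant 2 had 89.3%, 5.38% and 5.29%. The D-proximal share therefore averaged 52.6% ± 52.0 (SD, n = 2), an SD larger than the difference of 22.95 points between the malignant and wild-type means (exact permutation test, two-sided, p = 1.00). In the middle zone both malignant libraries were below the 36.3% to 38.5% of the other 4. Without Ighv14-3 and Ighv2-9, the remaining 1097 V counts of malignant 2 were spread as 26.8%, 36.9% and 36.3% from D-proximal to distal, near the values of wild type. Without Ighv1-81, malignant 1 still had 52.1% of its remaining 94 counts in the distal zone.

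**Figure D5:**
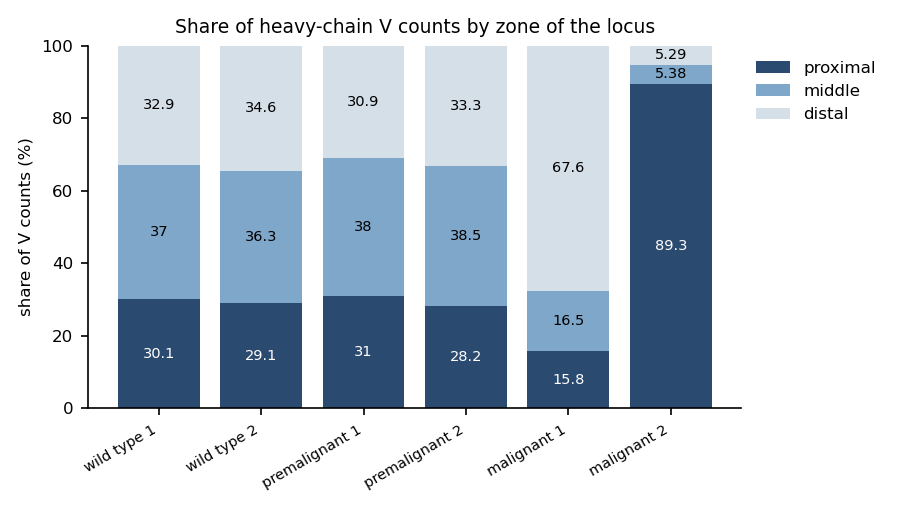
Share of the V counts (percent, stacked bars from 0 to 100) in the D-proximal zone of 38 genes, the middle zone of 37 and the distal zone of 37 for each of the 6 libraries. The 4 wild-type and premalignant bars are divided alike, with 28.2% to 31.0% D-proximal, whereas malignant 1 is 67.6% distal and malignant 2 is 89.3% D-proximal.

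Beneath its leading genes, malignant 2 had a profile close to that of wild type, at a low level. After removal of Ighv14-3 and Ighv2-9 its effective number of V genes was 45.8, the overlap with the wild-type mean was 85.1%, and across 110 genes Pearson's r with the wild-type mean was 0.92 and Spearman's rho 0.95, given as descriptions. Of the 77 remaining members with at least 100 wild-type counts, 1 was at 0, and the median level was 5.99% of wild type (quartiles 4.59% and 8.20%) and 14.4% of premalignant cells. Malignant 1 did not share this. Of its 78 such members besides Ighv1-81, 51 were at 0, and the overlap of its profile with the wild-type mean was 27.6% without Ighv1-81.

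When the malignant stage was tested as a whole, most members were lower than in wild type. Of the 112 members, 102 had a lower CPM in both malignant libraries than in both wild-type libraries, 7 overlapped and 3 had no counts. Of the 99 tested, 97 were lower in both, against 36.4% of all genes tested (35.3% were higher in both), and 96 were called lower and 0 higher by edgeR at the same thresholds, with 0 of the higher ones at an unadjusted p under 0.05 and 0 called higher by DESeq2. With no filter on low counts 99 were called lower and 2 higher, Ighv14-3 and Ighv2-9. The background was 24.3% called lower, 24.9% higher and 49.2% either way. The 3 members that were not called were Ighv14-3, Ighv2-9 and Ighv1-43, the last with 14 and 10 counts in wild type and 0 and 4 in malignant cells (log2 fold change -2.09 ± 1.14, adjusted p = 0.188 by edgeR), singled out after its values were seen. The median log2 fold change of the 99 was -5.14, and -5.10, -5.17 and -5.14 from the D-proximal to the distal zone, against -0.02 for all genes tested. The fitted median was -4.04 without malignant 1 and -8.87 without malignant 2. Called members thus came from the whole length of the locus, with 31 of 33 tested in the D-proximal, 32 of 33 in the middle and 33 of 33 in the distal zone.

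The abundant genes of wild type showed the size of this fall. Ighv9-3 was at 26.3 and 32.2 CPM in wild type and at 0 and 1.68 CPM in malignant cells (log2 fold change -5.23 ± 1.37, adjusted p = 0.0240 by edgeR). Ighv1-26 was at 25.5 and 36.5 CPM and then at 0.0209 and 2.26 CPM (log2 fold change -4.86 ± 1.30, adjusted p = 0.0259 by edgeR). Without wild type 2 neither was called, with adjusted p of 0.112 for Ighv9-3 and 0.119 for Ighv1-26 by edgeR. Ighv1-81, the leading gene of malignant 1, was called lower as well, with a log2 fold change of -3.70 ± 0.39 (adjusted p = 0.00134 by edgeR). For 8 of the 99 tested members both malignant libraries were at 0, so that the fitted value gives no bound. Taking 3 counts over both malignant libraries as the floor, Ighv1-23 was at least 27.6-fold lower, Ighv2-4 at least 23.8-fold, Ighv2-6-8 at least 19.1-fold and Ighv3-2 at least 13.9-fold lower than in wild type. With these 8 genes at their bounds, the median log2 fold change of the 99 was -4.92.

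From premalignant to malignant cells, 98 of the 112 members were lower in both malignant libraries, 6 overlapped and 8 had no counts. Of the 99 tested, 96 were lower in both, against 25.2% of all genes (25.9% were higher in both). Here 31 were called lower and 0 higher by edgeR (89 had an unadjusted p under 0.05, all lower, and DESeq2 called 62 lower and 0 higher, while with no filter 92 were lower and 2 higher), while among all genes 2.45% were called lower, 3.73% higher and 6.18% either way. The median log2 fold change was -3.82, or -3.71 with the 8 genes without malignant counts at their bounds where a bound could be set. Ighv1-13 and Ighv8-11, with 3 or fewer premalignant counts, gave no bound and kept their fitted values. Without malignant 1 the fitted median was -2.79, and without malignant 2 it was -7.62. Ighv1-64 was at 6.40 and 7.29 CPM in premalignant and 0.272 and 0.717 CPM in malignant cells (log2 fold change -3.84 ± 0.53, adjusted p = 0.0282 by edgeR). Ighv2-2, at position 3, was at 4.55 and 3.77 CPM and then at 0.209 and 0.681 CPM (log2 fold change -3.27 ± 0.59, adjusted p = 0.0506 by edgeR). Ighv9-4 went from 1.28 and 2.08 CPM to 0 and 0.0717 CPM, Ighv5-2 from 2.04 and 2.32 to 0 and 0.179 CPM, and Ighv1-31 from 0.400 and 0.572 to 0 and 0.0358 CPM, and all 3 were called lower. Ighv2-4 was at least 10.6-fold lower and Ighv2-6-8 at least 6.77-fold lower, with Ighv1-37 at least 3.83-fold lower.

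The number of calls between these stages depended on single libraries, among all genes tested as well as among V genes. Fitted medians of the V genes tested were -3.83 and -3.81 without wild type 1 or wild type 2. They were -3.93 and -3.73 without premalignant 1 or premalignant 2. With only the 4 libraries of these stages in the fit, 1 of 86 tested members was called, against 258 of all 15552 genes tested. Of the 86 members, 54 had an unadjusted p under 0.05.

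D and J segments were read in the same way, with few counts for D segments. Of the 21 D genes, Ighd2-4 held 30 of the 48 D counts of malignant 1 and 0 of 24 in malignant 2, after 2, 5, 9 and 2 counts in the wild-type and premalignant libraries. Ighd1-1 held 22 of 24 D counts in malignant 2, 10 of 48 in malignant 1, and 24, 12, 11 and 10 counts in the others. Ighd4-1, the D segment nearest to the J segments, had 20, 22, 20 and 18 counts in the wild-type and premalignant libraries and 0 in both malignant ones. The malignant libraries thus differed from each other in their main D segment as they did in their main V gene. J segments kept more counts, with 1936 and 1466 in wild type, 949 and 325 in premalignant, and 734 and 317 in malignant libraries. Ighj4 held 43.9% and 42.9% of them in wild type, 44.3% and 48.9% in premalignant cells, 44.1% in malignant 1 and 65.9% in malignant 2. Malignant 1 therefore held more J counts than V counts, which no other library did.

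Genes that act in heavy-chain rearrangement were followed from a list of 14. In premalignant cells 6 were called lower and 0 higher, in malignant against wild type 8 lower and 0 higher, and in malignant against premalignant 1 lower and 0 higher, with a median log2 fold change of -0.34, -0.64 and -0.40. Over all genes tested, 39.3%, 49.2% and 6.18% were called either way and 20.3%, 24.3% and 2.45% lower, and the list was not tested against them. Rag1, which encodes a subunit of the recombinase, fell in premalignant cells with a log2 fold change of -2.61 ± 0.45 (adjusted p = 0.00947 by edgeR), and Rag2, its partner, with -1.41 ± 0.52 (adjusted p = 0.0838 by edgeR). Dntt, the enzyme that adds bases at V, D and J joints, fell with -3.91 ± 1.22 (adjusted p = 0.0535 by edgeR). Ebf1 and Pax5, transcription factors of B-lineage commitment, fell with -1.42 and -0.58, and Il7r, the receptor for interleukin 7, with -2.38. Il7r was also the gene called lower from premalignant to malignant cells, with a log2 fold change of -1.27 ± 0.25 (adjusted p = 0.0608 by edgeR). Yy1, Ctcf, Rad21 and Ezh2, which take part in the folding or silencing of chromatin at the locus, had values of 0.17, 0.05, 0.14 and -0.02 in premalignant cells and were not called in any comparison.

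The partners of the μ chain in the pre-B receptor were lower in both comparisons with wild type. All 6 were called lower in premalignant and in malignant cells, and 0 between premalignant and malignant cells, where 0 had an unadjusted p under 0.05 either. The shares of all genes called lower were 20.3%, 24.3% and 2.45% in these comparisons. Igll1 and Vpreb1, the surrogate light chain, fell in premalignant cells with log2 fold changes of -3.78 ± 1.20 and -4.06 ± 1.08 (adjusted p = 0.0569 and 0.0336 by edgeR). Cd79a and Cd79b, the signalling chains that stay with the receptor in later B cells, fell with -0.63 ± 0.19 and -0.81 ± 0.15 (adjusted p = 0.0493 and 0.0117 by edgeR).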

How the data were processed

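RNA-seq of polyadenylated RNA was made by the authors in 2 libraries of each of 3 stages, with single-end reads on an unstranded TruSeq kit. The deposited values are raw counts per gene, which the authors made with TopHat and HTSeq on mm9; the HTSeq options and the annotation are not given in the sources used here. The deposited tables of the authors' own DESeq comparisons were not used. Genes were placed with GENCODE vM1 on NCBIM37, names came from RefSeq, and sequences were read from NCBIM37.

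The members and gene lists were chosen with earlier results of these data known. Shares are counts of a V gene divided by the counts of all 112 V genes in that library, without correction for length unless stated. Library totals ran from 30031100 to 53453055 counts. Levels were tested with edgeR 4.0.16 (R 4.3.3, limma 3.58.1) by the quasi-likelihood method after TMM normalization and the filterByExpr filter, in 1 fit of all 6 libraries, with Benjamini-Hochberg adjustment over 16683 genes, and called at FDR of 0.1 and a log2 size of 0.5. Per-library measures were compared by exact two-sided permutation tests (SciPy 1.17.1), whose smallest p with 2 against 2 is 0.333. Intervals are 95% Wilson intervals, and floors are 3 counts. The tests were tried on simulated data. Alternatives were DESeq2 1.42.0, upper-quartile scaling, no filter, no minimum fold, only the stages compared, a replicate block, leaving out each library, thinning, and leaving out the leading gene. Python 3.11.15, pandas 2.3.3 and matplotlib 3.10.9 were used.

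Named were the 3 highest shares per library, the 5 highest in wild type, both end genes and Ighv5-2, the 5 largest called changes each way per comparison, neighbours of a leading malignant gene, the leading C, D and J genes, and the fixed lists. Other genes are marked as chosen after their values were seen.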

Additional observations from a re-analysis of the deposited data

How the results depend on the processing

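The V genes called lower between premalignant and wild type numbered 13. They numbered 16 with DESeq2, 20 with upper-quartile scaling, 74 with no filter on low counts and 88 with only the stages compared. In the same order, all genes called lower were 3394 of 16683, 3249 of 26485, 3802 of 16683, 4091 of 26485 and 4248 of 16313. The calls also changed when 1 library was left out, with fitted medians of the V genes from -1.47 to -1.04. Between malignant and premalignant the 31 calls became 62 with DESeq2, 94 with no filter (92 lower and 2 higher) and 1 with only the stages compared (86 members tested). In the same order, calls among all genes were 1031 of 16683, 2169 of 26485, 2810 of 26485 and 258 of 15552. With 1 library left out, the fitted median of the V genes ran from -7.62 to -2.79. Between malignant and wild type the 96 calls ran from 76 to 101 over the alternatives, with 99 lower and 2 higher under no filter. The replicate block gave 21, 96 and 42 calls; same-numbered libraries correlated in their deviations by 0.41, 0.06 and 0.13, with 2 pairs each. The labels name no shared animal or batch behind a number and 2 pairs are too few to establish one, so the block was kept as an alternative, although replicate 1 was the deeper library at every stage. The difference in the effective number of V genes was -33.2 (malignant minus wild type) and -33.0 (malignant minus premalignant) when thinned to the smallest V total, and -40.1 and -41.2 with the leading gene of each library left out. For premalignant minus wild type it was -0.607, with -0.247 after thinning and 1.08 without the leading gene. The D-proximal share, premalignant minus wild type, moved from -0.0359 to 2.83 percentage points without the leading gene of each library. The gene removed was the D-proximal Ighv9-3 in wild type 1 but the middle-zone Ighv1-26 in wild type 2 and both premalignant libraries. The value of 2.83 thus compares libraries with different genes removed. For malignant minus either stage, the difference in D-proximal share ran from -13.8 to 59.7 when 1 library was left out.

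Without malignant 2 the log2 fold change of Ighv14-3 reversed to -11.23 against wild type and -10.04 against premalignant, and that of Ighv2-9 to -10.03 and -8.74; without malignant 1 they were 5.02, 6.25, 2.22 and 3.56. Ighv8-11, which had 2 premalignant counts, went to 0 in malignant against premalignant without premalignant 2 and was -4.35 without premalignant 1. Of the alternatives tried on named genes, 573 kept direction and side of the threshold, 78 lost the call and 79 gained one; the cause was not tested. Upper-quartile scaling moved the median of all genes in malignant against wild type from -0.02 to -0.19. Adding other genes of the V cluster and leaving out RefSeq pseudogenes, both chosen after seeing the data, moved no per-library measure beyond the spread between replicates. Adding IG_V_pseudogene genes was not run, since the annotation used has 0 of that type.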
